A study of Homo sapiens with 14 samples.

Results

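ELF3, EHF, ELF5 and SPDEF are the ETS transcription factors found mainly in epithelial cells, and the accessibility of chromatin around their genes was followed by ATAC-seq in SUM149PT cells. The data are 24 of the 65774 regions of a consensus set, chosen because they start inside a window around 1 of the 4 genes (hg38): 7 regions for ELF3 (chromosome 1, 201.98 to 202.03 Mb), 11 for EHF (chromosome 11, 34.58 to 34.70 Mb), 4 for ELF5 (chromosome 11, 34.46 to 34.53 Mb) and 2 for SPDEF (chromosome 6, 34.52 to 34.58 Mb). SUM149PT is a widely used breast cancer cell line of the inflammatory type, negative for both the oestrogen and the progesterone receptor. The samples are 6 clones derived from it, named M2, M1, EM2, E, EM3 and EM1, letters that the field uses for epithelial (E), mesenchymal (M) and intermediate (EM) states, and the unselected line (Parental), with 2 libraries each and no treatment. Each group other than Parental is a single clone, so a difference from Parental is that of 1 clone, and nothing in the labels states that a group's 2 libraries are from separate cultures. The p-values therefore measure the spread between these libraries, which may be technical.

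ETS factors bind DNA through a winged helix-turn-helix domain that reads a GGAA core. ELF3 and EHF are expressed in many simple and stratified epithelia, ELF5 drives the milk-producing alveolar programme of the mammary gland, and SPDEF is known from secretory and luminal cells such as goblet cells. ATAC-seq inserts sequencing adapters into open DNA with the Tn5 transposase, so the count of a region measures how open it is, not the expression of the gene beside it.

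The start region of ELF3 covers an annotated promoter, and a region of EHF overlaps part of one. Both promoter sequences are shown because these regions were among those with the largest losses in the M clones. They are the RefSeq promoters on GRCh38.p14 (250 bases before to 50 after an annotated start), ELF3 at chr1:202010337-202010636 and EHF at chr11:34624007-34624306, both on the plus strand. Capitals mark the ETS core GGAA (or TTCC, its other strand) and the E-box CACCTG, the letters read by ZEB and SNAIL factors.
ELF3: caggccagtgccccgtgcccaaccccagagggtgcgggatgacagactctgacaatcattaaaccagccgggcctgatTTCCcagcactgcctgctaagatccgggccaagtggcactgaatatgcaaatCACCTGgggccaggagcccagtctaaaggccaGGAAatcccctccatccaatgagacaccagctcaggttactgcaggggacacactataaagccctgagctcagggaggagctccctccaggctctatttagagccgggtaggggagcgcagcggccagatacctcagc
EHF: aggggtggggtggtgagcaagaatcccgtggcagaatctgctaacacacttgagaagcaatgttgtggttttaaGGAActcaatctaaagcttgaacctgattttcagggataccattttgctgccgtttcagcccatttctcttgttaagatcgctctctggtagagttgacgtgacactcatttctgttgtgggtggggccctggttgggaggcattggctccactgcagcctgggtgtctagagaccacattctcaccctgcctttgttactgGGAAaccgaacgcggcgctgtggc
On both strands, the ELF3 promoter held 2 ETS cores, 1 CACCTG E-box and 1 TATA box (TATAAA), and the EHF promoter held 2 ETS cores and 2 RUNX cores (TGTGGT). Of 35116 RefSeq promoters of this length, 95.5% held the ETS core, 20.6% the E-box, 13.1% the RUNX core and 11.5% the TATA box. Neither promoter held the AP-1 letters TGANTCA (7.71% of promoters) or the Grainyhead letters AACCNGTT (1.73% of promoters). The GC content was 59.0% for ELF3 and 51.3% for EHF, against a median of 58.7% over all promoters. All 300 bases of the ELF3 promoter lay in a consensus region, and 174 bases of the EHF promoter did. The first ETS core and the first RUNX core of the EHF promoter lay outside its region. No consensus region overlapped the listed promoters of ELF5 or SPDEF, or a further EHF promoter with its start at 34632566.

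Library totals over all regions ran from 8138944 counts to 16786823 counts. The log2 levels of the 2 libraries of a group correlated across regions with r = 0.873 in E, against 0.948 to 0.970 elsewhere. The first E library stood apart. In 12 regions, picked for counts in M2 and none in Parental, M1 or the EM clones, it held 528 counts, or 21.1% of the level in M2 (19.4 to 23 by an exact Poisson interval at 95%). The second E library held 49 counts there, or 1.77% (1.31 to 2.35). Intervals and count floors cover counting error only. The part of this signal in the results on E was not tested, and the called changes in E against Parental are given also without that library. The chromosome around a gene also moved in some clones. The median log2 change of all regions in the 10 Mb window around EHF and ELF5 (343 to 345 regions) was -1.08 or -1.09 in M2 and -0.90 in E, each against Parental. Around ELF3 (410 to 416 regions) it was between -0.52 and -0.51 in M1, -0.49 in EM2 and between -0.30 and -0.28 in M2, and around SPDEF (454 regions) it stayed within 0.09 of 0 in every comparison. Changes of the copies of a chromosome segment and changes of accessibility across it cannot be told apart in these counts. Named calls against Parental that end or change sign with the window median subtracted are therefore marked. The same is done for calls of the 24 regions between M2 and M1. Values with the window median subtracted are also given for the larger shifts on chromosome 11. Levels are given as CPM, counts scaled to the library size with TMM factors, fold changes are log2 ratios fitted by edgeR, and a change was called at an adjusted p under 0.05 over all 65771 regions tested. All 24 regions passed the filter on low counts.

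Without correction for the window medians, most of the 24 regions were less open in the M clones, and the intermediate clones moved far less. In M2, 18 of the 24 were called, 14 lower and 4 higher, where 67.0% of all regions were called in that comparison (34.9% lower and 32.2% higher). In M1, 18 were called, 13 lower and 5 higher, against 42.4% of all regions (23.4% lower and 19.0% higher). The median log2 change of the 24 was -0.71 in M2 and -0.63 in M1, against medians of -0.01 and 0.01 over all regions. With the window median removed, 19 of the 24 were called in M2 and 15 in M1. These 2 counts are not split by direction, so the 19 do not show that most regions were lower in M2. In M2 the removal raised the value of every EHF and ELF5 region, since the window median there was -1.08 or -1.09. Calls that arose only with the removal are not followed here. In that setting 39543 and 25567 of all regions were called. Some of the lower calls were then lost or changed sign, as given below for each region. In EM2, 5 regions were called, all lower (background 9.19% in either direction, 6.17% lower and 3.02% higher). In E, 7 were called, all lower (background 11.6%, 6.31% lower and 5.26% higher), and in EM3 there was 1, also lower (background 3.11%, 1.26% lower and 1.85% higher). In EM1, edgeR and DESeq2 called 0 of the 24, where 0.628% of all regions were called (0.287% lower and 0.341% higher), and 3 of the 24 had an unadjusted p under 0.05. The smaller counts rest on single libraries. The calls over all regions moved in the same settings, so each count is given with that number. EM2 had 2 called regions without its replicate 2 or without Parental replicate 1, where 3881 and 2173 of all regions were called, against 6043 with every library. E had 3 without E replicate 1 (3391 of all regions, against 7609 with every library), and 2 without Parental replicate 1 or 2 (2264 and 1235). EM3 had 0 without Parental replicate 1 (108 of all regions, against 2048 with every library), and 2 without E replicate 1 or 2 (3158 and 3189). In EM1 the count over all regions was 7 and 2 without Parental replicate 1 or 2, against 413. Across the 7 groups together, 22 of the 24 regions differed (background 78.6%). The exceptions were the ELF3 region at -10.8 kb and the SPDEF region at 29.0 kb.

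**Figure D1:**
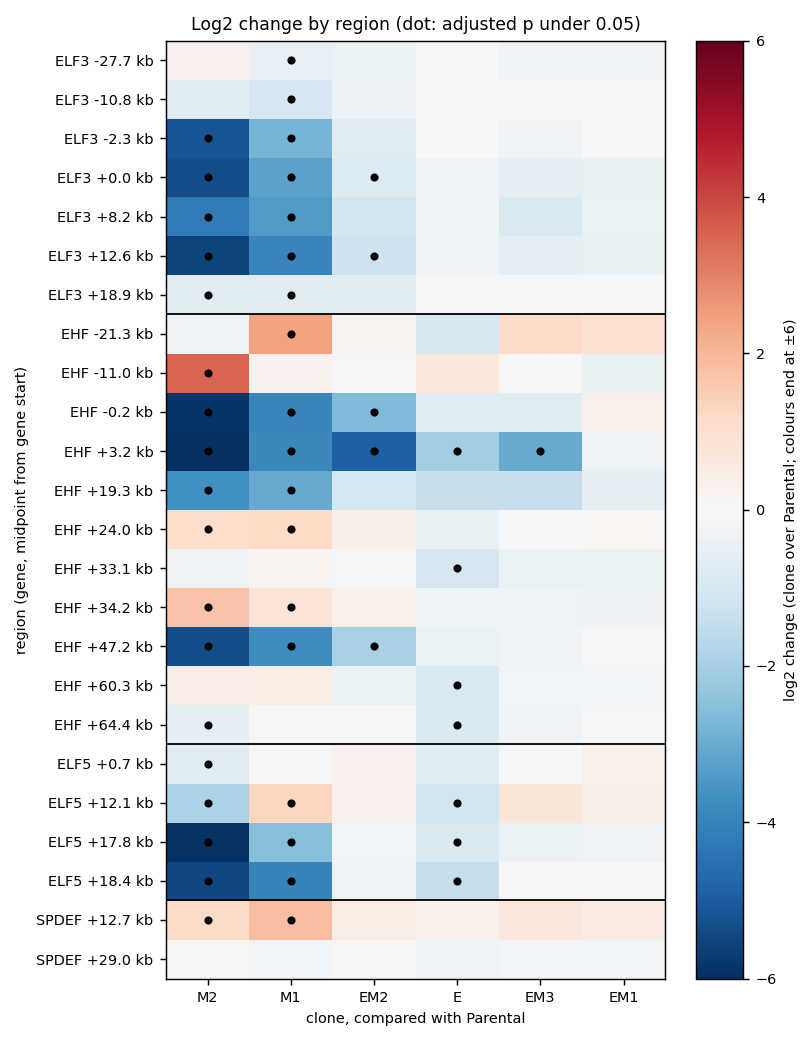
Log2 change of each of the 24 regions (rows, by gene and distance of the region's midpoint from the gene's start in kb) in the 6 clones (columns) against Parental, where a dot marks a called change. In M2, 14 regions were called lower and 4 higher, and in M1 13 lower and 5 higher, while EM1 has no dot.

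The start region of ELF3 lost nearly all of its signal in M2 and most of it in M1. ELF3 is an epithelium-specific activator that has been described as a brake on the epithelial-mesenchymal transition. The region (chr1:202010306-202010955, over the annotated start at 202010587) had 1.83 and 1.15 CPM in M2, 7.23 and 6.34 in M1, 39.3 and 33.0 in EM2, 48.0 and 63.1 in E, 42.3 and 41.4 in EM3, 49.1 and 44.1 in EM1, and 69.5 and 57.9 in Parental. From high to low the groups ran Parental, E, EM1, EM3, EM2, M1 and M2, and only Parental, E and EM1 overlapped with a neighbour in that order. The mean of M2 was 1.49 ± 0.485 CPM and that of M1 6.79 ± 0.628 CPM, against 63.7 ± 8.14 CPM in Parental (SD, n = 2 each). The change was -5.31 in M2 (SE 0.24, adjusted p = 6e-09) and -3.21 in M1 (SE 0.20, adjusted p = 1.9e-07). M2 also lay below M1 (-2.10, SE 0.26, adjusted p = 2.1e-05). EM2 was lower than Parental by a smaller step of -0.81 (SE 0.18, adjusted p = 0.013). That call was lost without EM2 replicate 2 (-0.69), without Parental replicate 1 (-0.68) and with the window median removed (-0.32). Fewer cells with an open region and less opening per cell cannot be told apart in these bulk samples, here and below.

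The 3 regions flanking the ELF3 gene body on either side moved with the start. The region at -2.26 kb (chr1:202008170-202008479) had 0.687 and 0.459 CPM in M2 and 4.36 and 3.17 CPM in M1, against 25.5 and 27.1 CPM in Parental. The change was -5.19 in M2 (SE 0.30, adjusted p = 2.8e-08) and -2.77 in M1 (SE 0.25, adjusted p = 2e-06). The region at 8.15 kb (chr1:202018231-202019244), beyond the gene's end at 202017183, had 3.21 and 2.60 CPM in M2 and 5.53 and 4.62 CPM in M1, against 73.4 and 36.8 CPM in Parental. Its change was -4.18 in M2 (SE 0.48, adjusted p = 6.8e-06) and -3.41 in M1 (SE 0.45, adjusted p = 4.3e-05), and the first libraries of EM2, EM3, EM1 and Parental all lay well above the second. At 12.6 kb (chr1:202023011-202023448) the values were 0.344 and 0.382 CPM in M2, 1.91 and 1.06 in M1, 10.3 and 10.3 in EM2, 18.8 and 22.1 in E, 18.6 and 15 in EM3, 22.6 and 13.3 in EM1, and 27.7 and 22.0 in Parental. M2 and M1 were both below every other group there (-5.54 and -3.97 against Parental, adjusted p = 1.1e-07 and 1.4e-06). EM2 was lower there too (-1.25, adjusted p = 0.014), a call lost without either EM2 library (-1.26 without replicate 1 and -1.25 without replicate 2), without Parental replicate 1 (-1.08) and with the window median removed (-0.76). All 4 regions from -2.26 to 12.6 kb were thus lower in both M clones. M2 lay below M1 at all 4, and the difference was called at 3 of them but not at 8.15 kb (-0.78, adjusted p = 0.21).

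The outer regions of the ELF3 window moved less. The region at -27.7 kb (chr1:201982305-201983505) is within 1 kb of the start of RNPEP, an aminopeptidase gene, and had 59.1 and 68.5 CPM in M2, 37.2 and 36.3 CPM in M1 and 53.3 and 51.8 CPM in Parental. M1 was lower there (-0.52, adjusted p = 0.0048), a call lost with the window median removed. The region at -10.8 kb was lower in M1 (-0.99, adjusted p = 0.033), which was lost without either M1 library, either Parental library or EM3 replicate 2 (-1.10 to -0.88 over single libraries left out) and with the window median removed (-0.51). At 18.9 kb the calls in M2 (-0.68, adjusted p = 0.042) and M1 (-0.75, adjusted p = 0.044) were close to the threshold. The call in M2 was lost without either M2 library, EM3 replicate 1, EM2 replicate 2, EM1 replicate 1 or Parental replicate 1 (-0.85 to -0.55), and that in M1 without any 1 library of M1, EM2, EM3, EM1 or Parental (-0.86 to -0.61). Both calls were also lost with the window median removed (-0.39 in M2 and -0.24 in M1). In E, 0 of the 7 ELF3 regions were called by edgeR or DESeq2, and 0 had an unadjusted p under 0.05. Summed over the window, the 7 regions held 18.4 ± 1.23 CPM per kb in M2, 14.6 ± 0.67 in M1, 31.8 ± 3.53 in EM2, 50.05 ± 5.6 in E, 39.3 ± 3.14 in EM3, 44.5 ± 7.49 in EM1 and 55.4 ± 9.18 in Parental (SD, n = 2). These sums include the region at the RNPEP start. Over only the 4 regions nearest to ELF3 the order of the M clones was reversed, with 4.82 ± 0.067 in M2 and 8.08 ± 0.63 in M1.

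**Figure D2:**
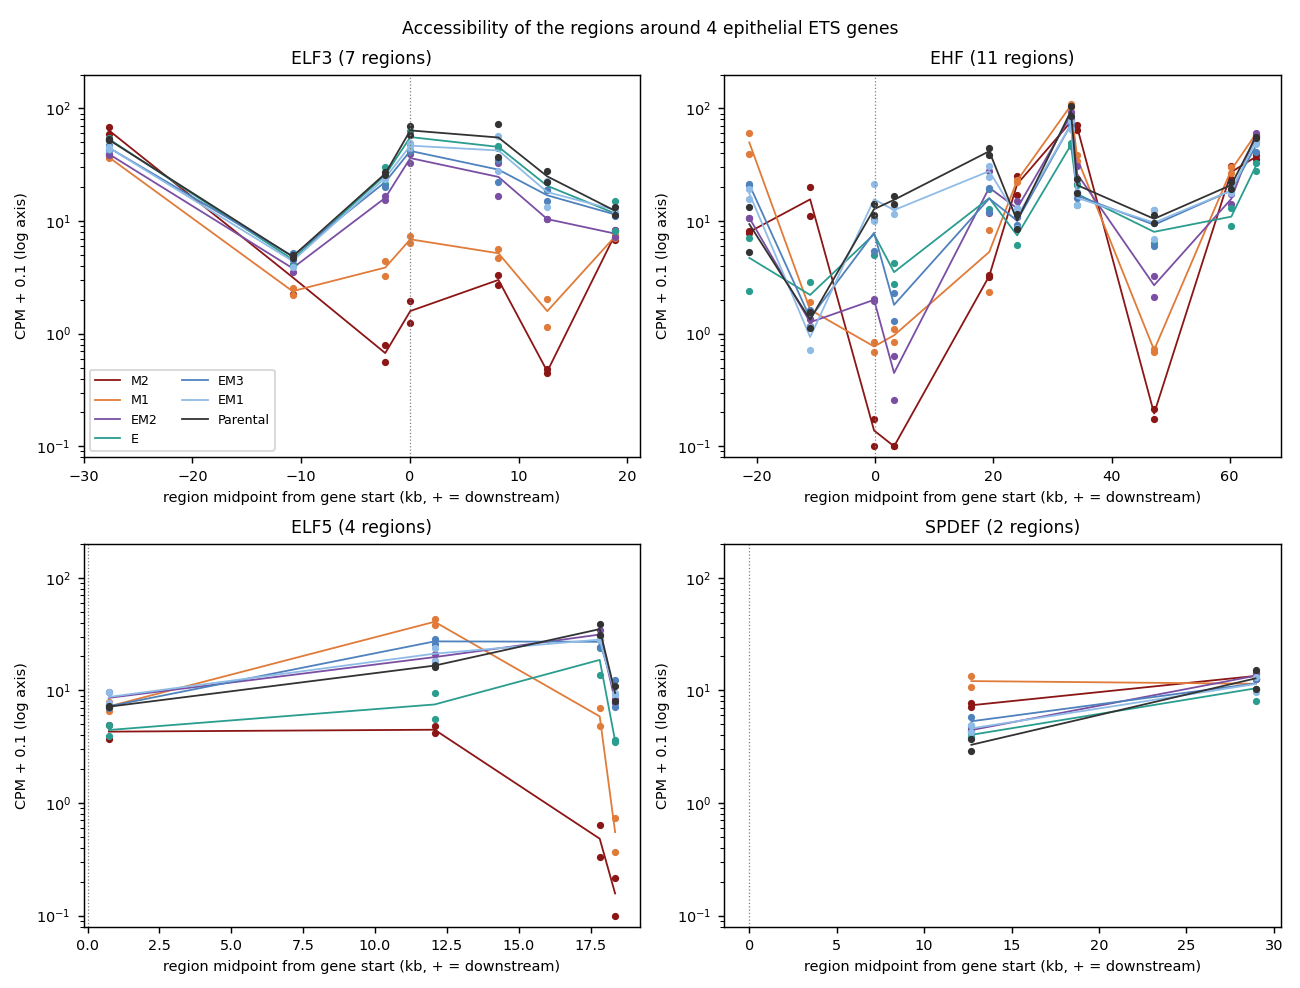
Mean CPM per group (log axis, after adding 0.1) of each region against its distance from the start of ELF3, EHF, ELF5 or SPDEF in kb, 1 panel per gene and 1 line per group. Around the ELF3 start the M2 and M1 lines (1.49 and 6.79 CPM) run below the other groups, whose means lie between 36.1 and 63.7 CPM, while within EHF the groups cross.

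EHF, an activator and repressor of genes of barrier epithelia, changed in both directions. Its start region and 3 others lost most or all signal in the M clones, while 3 other regions in each M clone gained it. The start region (chr11:34620746-34621022, 71 bases before the start at 34621093) had 0 and 0.0764 CPM in M2, 0.744 and 0.595 in M1, 1.93 and 1.87 in EM2, 4.85 and 10.2 in E, 5.27 and 10.3 in EM3, 9.88 and 21.1 in EM1, and 11.2 and 14.2 in Parental. Both M clones and EM2 lay below all other groups, and the libraries of those 4 groups overlapped in part. M2 held 1 count against 290 in Parental, which was 277-fold lower after scaling (95% counting interval 49.4 to 10991) with an adjusted p = 3.4e-06. The log2 change was -3.95 in M1 (SE 0.52, adjusted p = 4.5e-05) and -2.63 in EM2 (SE 0.47, adjusted p = 0.0038).

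The region at 3.18 kb (chr11:34624133-34624410), over part of the promoter shown above, separated Parental and EM1 from the other clones. It had 0 and 0 CPM in M2, 0.744 and 0.991 in M1, 0.540 and 0.156 in EM2, 2.67 and 4.17 in E, 2.20 and 1.21 in EM3, 13.3 and 11.6 in EM1, and 16.6 and 14.1 in Parental. No 2 groups overlapped, and the order ran from Parental through EM1, E, EM3, M1 and EM2 down to M2. M2 held 0 counts in both libraries against 349 in Parental, at least 111-fold lower (floor of 3 counts over the group). The change was -4.90 in EM2 (SE 0.46, adjusted p = 0.00014), -3.88 in M1 (SE 0.43, adjusted p = 1.7e-05) and -3.01 in EM3 (SE 0.40, adjusted p = 0.0039). It was -2.11 in E (SE 0.39, adjusted p = 0.0067). The EM3 call was lost without Parental replicate 1 (-2.89). The E call was lost without Parental replicate 1 (-1.99), without Parental replicate 2 (-2.20) and with the window median removed (-1.23), and it was kept without E replicate 1 (-1.84). EM2 was also below E (-2.80, SE 0.46, adjusted p = 0.0019). In this fit it was the only region of the 24 called in EM3, and so the only one called in M2, M1, EM2, E and EM3 alike. Other settings called more in EM3, with 3 regions by DESeq2, 4 in a fit of only the 4 libraries compared and 6 with a replicate block.

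Further losses lay at 19.3 and 47.2 kb. The region at 19.3 kb (chr11:34640154-34640611), inside EHF, had 3.09 and 3.21 CPM in M2 and 8.19 and 2.25 CPM in M1, against 44.8 and 38.3 CPM in Parental (-3.65 and -3.02, adjusted p = 4.9e-05 and 0.00031). The M2 change there was -2.60 with the window median removed. The region at 47.2 kb (chr11:34668104-34668483), downstream of the gene's end at 34663288, had 0.115 and 0.0764 CPM in M2, 0.638 and 0.595 in M1, 3.16 and 2.03 in EM2, and 11.2 and 9.50 in Parental. M2 held 2 counts there against 236 in Parental, 113-fold lower (95% counting interval 30.9 to 937). The change was -3.75 in M1 and -1.93 in EM2 (adjusted p = 3.3e-05 and 0.011), and the EM2 call was lost without EM2 replicate 2 (-1.66) or Parental replicate 1 (-1.81).

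The gains in EHF lay at other positions and differed between the M clones. The region at -21.3 kb (chr11:34599478-34600049) had 8.02 and 7.80 CPM in M2, 39.1 and 60.4 in M1, 10.6 and 10.5 in EM2, 2.30 and 6.92 in E, 21.3 and 20.8 in EM3, 15.8 and 19.3 in EM1, and 5.26 and 13.3 in Parental. Only M1 was called higher than Parental (2.40, SE 0.42, adjusted p = 0.00041), and M2 lay below M1 (-2.63, SE 0.42, adjusted p = 0.00019, and -1.47 with the window median removed). At -11.0 kb (chr11:34609888-34610236) it was M2 that was high, with 20.04 and 10.9 CPM against 1.45 and 1.02 in Parental and 0.623 to 2.79 in the libraries of the other clones (3.48, SE 0.46, adjusted p = 2.3e-05, and 4.53 with the window median removed). Inside the gene, the region at 34.2 kb (chr11:34654903-34655654) had 64.8 and 70.8 CPM in M2, 38.3 and 33.8 in M1 and 23.8 and 17.7 in Parental. It rose by 1.70 in M2 (SE 0.23, adjusted p = 3.2e-05) and by 0.79 in M1 (SE 0.23, adjusted p = 0.014), the second call being lost without M1 replicate 1 (0.74) or Parental replicate 2 (0.60). The region at 24.0 kb rose by 1.07 in M2 and by 1.17 in M1 (adjusted p = 0.0054 and 0.0052). Both calls were lost without Parental replicate 1 (0.87 in M2 and 0.97 in M1), and that in M2 also without M2 replicate 2 (0.76). The changes in M2 were larger with the window median removed, 2.78 at 34.2 kb and 2.15 at 24.0 kb.

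At the 2 most open regions of EHF away from its start, no called change against Parental kept its direction and its call with the window median removed. Changes not called before that removal are not followed here. The region at 33.1 kb (chr11:34653810-34654622, inside the gene) had 78.6 and 73.6 CPM in M2, 109 and 104 in M1, 92 and 81 in EM2, 46.0 and 48.8 in E, 72.9 and 70.8 in EM3, 77.5 and 65.9 in EM1, and 104 and 85.1 in Parental. E was the lowest group (-1.0 against Parental, SE 0.14, adjusted p = 0.0013), and this change was -0.96 without E replicate 1 and -0.10 with the window median removed. The region at 64.4 kb (chr11:34685264-34685673) had 35.5 and 38.4 CPM in M2, 57.8 and 59.7 in M1, 59.9 and 57.2 in EM2, 27.7 and 32.9 in E, 41.1 and 50.3 in EM3, 52.5 and 48.7 in EM1, and 55.9 and 54.4 in Parental. The change was -0.58 in M2 (SE 0.14, adjusted p = 0.0026) and -0.86 in E (SE 0.14, adjusted p = 0.0034), and with the window median removed the values were 0.51 and 0.039, above 0. Without E replicate 1 the change in E was -0.74. The region at 60.3 kb had 30.6 and 23.8 CPM in M2 and 8.86 and 12.8 CPM in E, against 19.3 and 22.3 CPM in Parental. It was called only in E (-0.93, adjusted p = 0.018), and not without E replicate 1 (-0.69), Parental replicate 1 (-1.03) or Parental replicate 2 (-0.80), nor with the window median removed (-0.03). Summed over the EHF window the level was 49.8 ± 0.548 CPM per kb in M2, 60.5 ± 0.600 in M1, 45.9 ± 4.58 in EM2, 30.1 ± 1.14 in E, 42.7 ± 1.69 in EM3, 48.9 ± 1.06 in EM1 and 56.8 ± 2.87 in Parental (SD, n = 2).

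**Figure D3:**
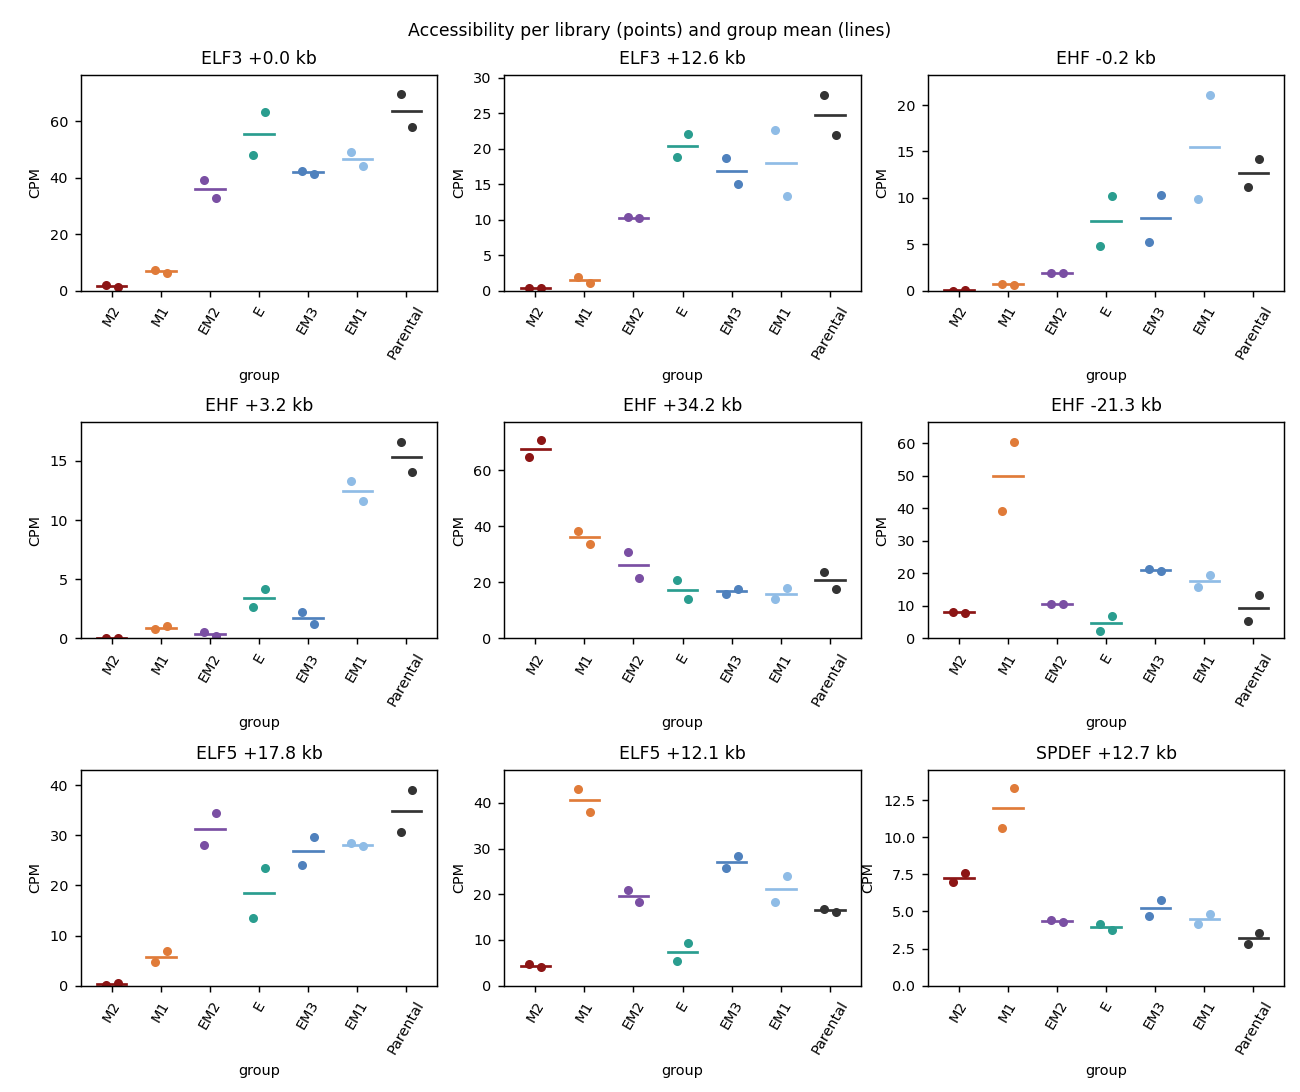
CPM in each library (points) with the mean of each group (line) for 9 of the regions, ELF3 at 0.043 and 12.6 kb, EHF at -0.21, 3.18, 34.2 and -21.3 kb, ELF5 at 17.8 and 12.1 kb and SPDEF at 12.7 kb, with the clones left of Parental. M2 is lowest in 6 of the 9 panels, and it is highest at EHF 34.2 kb.

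ELF5, the alveolar factor of the mammary gland, lost its internal regions in M2, while M1 lost 2 of them and gained another. The gene lies on the minus strand (chr11:34478791-34513794). The region at 17.8 kb (chr11:34495631-34496317) had 0.229 and 0.535 CPM in M2, 4.68 and 6.87 in M1, 28.1 and 34.4 in EM2, 13.6 and 23.5 in E, 24.1 and 29.7 in EM3, 28.5 and 27.8 in EM1, and 30.6 and 39.1 in Parental. M2 lay below M1, and M1 below every other group. The change was -5.92 in M2 (SE 0.39, adjusted p = 6.2e-08) and -2.54 in M1 (SE 0.29, adjusted p = 1.4e-05), and M2 against M1 was -3.38 (SE 0.41, adjusted p = 1.9e-05). These were -5.06, -2.68 and -2.44 with the window median removed. Its neighbour at 18.4 kb (chr11:34495343-34495534) had 0.115 and 0 CPM in M2 and 0.638 and 0.264 CPM in M1, against 7.98 and 10.8 CPM in Parental. M2 held 1 count against 215 in Parental (206-fold lower, 95% counting interval 36.5 to 8158), and M1 fell by 4.02 (SE 0.44, adjusted p = 1e-05).

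The region at 12.1 kb (chr11:34501521-34501917) moved in opposite directions in the 2 M clones. It had 4.70 and 4.05 CPM in M2, 43.1 and 38.1 in M1, 21.0 and 18.3 in EM2, 5.46 and 9.33 in E, 25.8 and 28.4 in EM3, 18.3 and 23.9 in EM1, and 16.9 and 16.1 in Parental. M1 was the highest group and M2 the lowest, and neither overlapped with any other. M2 fell by 1.88 (SE 0.25, adjusted p = 2.5e-05), M1 rose by 1.29 (SE 0.23, adjusted p = 0.00046), and M2 against M1 was -3.17 (SE 0.25, adjusted p = 6.8e-07). All 3 were still called with the window median removed, at -0.83 in M2, 1.14 in M1 and -2.02 for M2 against M1. The start region (chr11:34512927-34513177, within 1 kb of the start at 34513794) was of low depth and varied little, with 4.81 and 3.59 CPM in M2, 6.49 and 7.73 in M1, 9.48 and 7.48 in EM2, 4.85 and 3.84 in E, 6.89 and 7.35 in EM3, 9.61 and 7.67 in EM1, and 7.16 and 6.96 in Parental. M2 was lower by a change of -0.74 (SE 0.27, adjusted p = 0.028). That call was lost without M2 replicate 2 (-0.54) or either Parental library (-0.72 and -0.78), and the value was 0.31 with the window median removed. E was lower at 3 of the 4 ELF5 regions (18.4, 17.8 and 12.1 kb), by -1.40, -0.90 and -1.13 (adjusted p = 0.031, 0.047 and 0.012). Each of these calls was lost without E replicate 1 (-1.42, -0.57 and -0.81), without either Parental library (-1.59 to -0.70), and with the window median removed (-0.53, -0.01 and -0.25). The call at 18.4 kb was also lost without E replicate 2, and that at 17.8 kb without any 1 library of EM2, EM3 or EM1 and without M2 replicate 2. The window sum was 5.90 ± 0.774 CPM per kb in M2, 35.3 ± 0.899 in M1, 44.1 ± 1.13 in EM2, 22.1 ± 5.87 in E, 46.3 ± 6.45 in EM3, 43.9 ± 1.21 in EM1 and 44.4 ± 4.77 in Parental (SD, n = 2).

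SPDEF, a factor of secretory and luminal epithelial cells, went the other way from ELF3. No region lay within 1 kb of its start at 34556329, and the only region in the gene, at 12.7 kb (chr6:34543500-34543759, minus strand), was open at a low level. It had 6.99 and 7.57 CPM in M2, 10.6 and 13.3 in M1, 4.39 and 4.29 in EM2, 4.12 and 3.73 in E, 4.69 and 5.74 in EM3, 4.18 and 4.81 in EM1, and 2.81 and 3.56 in Parental. M1 and M2 were the 2 highest groups and Parental was the lowest. M2 rose by 1.15 (SE 0.27, adjusted p = 0.0021) and M1 by 1.86 (SE 0.27, adjusted p = 1e-04). M2 was lower than M1 by a change of -0.71 (adjusted p = 0.032), a call lost without either M2 library or M1 replicate 2 (-0.91 to -0.55 over single libraries left out). The region at 29.0 kb (chr6:34527123-34527633) lies inside PACSIN1, a gene of membrane trafficking, and had 14.2 and 12.5 CPM in M2, 10.2 and 12.5 CPM in M1 and 10.2 and 15.2 CPM in Parental. It was called in no comparison. The sum over both regions was 26.7 ± 1.07 CPM per kb in M2, 30.3 ± 4.58 in M1, 23 ± 1.53 in EM2, 18.5 ± 4.79 in E, 21.6 ± 1.13 in EM3, 20.5 ± 2.73 in EM1 and 20.6 ± 5.30 in Parental (SD, n = 2).

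The 2 M clones differed from each other at most of these regions. Of the 24 regions, 17 were called between M2 and M1, 14 lower and 3 higher in M2, where 56.3% of all regions were called (29.1% lower and 27.2% higher). The 3 higher ones were EHF at -11.0 kb (3.22, adjusted p = 6.5e-05) and 34.2 kb (0.91, adjusted p = 0.0042) and ELF3 at -27.7 kb (0.79, adjusted p = 0.00017). All 4 ELF5 regions were lower in M2 than in M1, in a segment whose 10 Mb median was -1.18 in the same comparison. With the window medians removed 15 regions were called, where 30733 of all regions were called. The differences then turned above 0 at the ELF5 start (0.40) and at EHF 33.1 and 64.4 kb (0.70 and 0.51). The calls at ELF5 18.4 kb (-1.06), EHF -0.21 kb (-1.56) and EHF 47.2 kb (-1.02) were lost. Between EM2 and E, 11 regions were called, 5 higher and 6 lower in EM2, against 18.0% of all regions (8.11% higher and 9.87% lower). The 5 higher ones were all on chromosome 11, where the 10 Mb median was 0.93, and of the 6 lower ones 3 were in ELF3 and 3 in EHF. Around ELF3 the 10 Mb median was between -0.53 and -0.52, and the change at -27.7 kb turned above 0 with it removed. The EHF regions at -0.21, 3.18 and 47.2 kb went down in EM2 relative to E (-1.90, -2.80 and -1.55) against the median on chromosome 11. The first of these calls was lost without E replicate 2 or either EM2 library (-2.33 to -1.37 over single libraries left out), and the third without E replicate 1 or either EM2 library (-1.91 to -1.22). The total was 4 without either EM2 library, 8 without either E library and 4 with the window medians removed. Without E replicate 1, 5 of the 11 calls were lost, at ELF5 18.4 kb (1.18) and its start (1.11), EHF 47.2 kb (-1.22), and ELF3 -27.7 and 12.6 kb (-0.48 and -1.09).

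Other genes were read by the most open region within 1 kb of a gene end, which 11856 protein-coding genes had. Among these, 46.0% were higher and 17.3% lower in M2 (median 0.40), and 9.15% were higher and 13.1% lower in M1. In EM2 1.96% were higher and 2.69% lower, in E 2.61% and 2.90%, and in EM3 0.143% and 1.82%. Of 23 other ETS family genes, 17 had such a region. In M2, 12 of the 17 rose and 1 fell, and in M1 2 rose and 2 fell. The share higher in M2 thus stands beside a shift of gene-end regions as a whole, and 6 rose with the window medians removed. ETS1, an ETS factor of mesenchymal, endothelial and lymphoid cells, changed most. Its region (chr11:128458327-128458768) had 26.3 ± 11 CPM in M2, 20.6 ± 0.422 in M1 and 7.90 ± 1.77 in EM3, against 1.63 ± 0.263 CPM in Parental (SD, n = 2 each). The changes were 3.89, 3.54 and 2.18 (adjusted p = 1.2e-05, 5.1e-05 and 0.026), and the EM3 call was lost without either EM3 or either Parental library (1.92 to 2.36). ETV1, of the PEA3 group, rose by 1.42 in M2 (adjusted p = 1.2e-05), ETV2 by 0.98 (adjusted p = 8.5e-05) and ELF2 by 0.77 (adjusted p = 0.00041). With the window median removed ETV1 was 0.79 in M2 and still called, while the calls of ETV2 (0.29, adjusted p = 0.11) and ELF2 (0.23, adjusted p = 0.19) were lost. ETV1 was also called in M1 (0.48), a call lost with the window median removed (0.34). It was lost too without either M1 library or Parental replicate 1 (0.33 to 0.52).

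Epithelial transcription factors with a gene-end region numbered 9 of 13. In M2, 4 fell and 1 rose, in M1 4 fell, in EM2 1 fell and in E 1 fell. Among the M1 calls was TFAP2C (-0.36), which was lost in 12 of 21 alternatives. These were library totals, DESeq2 size factors, and leaving out any 1 library of M1, EM1, EM2, EM3 or Parental. In M2 the TFAP2C change was -2.23 (adjusted p = 5e-08), called in every alternative. The EM2 call was GRHL2 and the E call was TFAP2A, the second lost without E replicate 1 (-0.86) and with the window median removed (-0.32). Both of these calls, and each EM2 call in the lists of EMT factors, targets and markers, were lost in at least 1 setting that left out a library of EM2, E or Parental. The EM2 calls of TWIST2 (0.72), CDH1 (-0.77), LCN2 (-0.50) and EPCAM (-0.29) were also lost with the window median removed. GRHL2, a Grainyhead factor that keeps epithelial genes open, had 0.0382 ± 0.0540 CPM in M2 and 0.822 ± 0.0408 CPM in M1, against 43.1 ± 0.661 CPM in Parental (SD, n = 2). TFAP2A, an AP-2 factor of skin and breast, fell in both M clones (-6.46 in M2 and -0.83 in M1, adjusted p = 4.9e-09 and 0.0026). OVOL2, a repressor of mesenchymal genes, fell in both (-4.27 in M2 and -3.22 in M1, adjusted p = 1.4e-07 and 1.7e-06). The EMT factors had 5 of 6 genes with a region, of which 2 rose in each M clone and 1 in EM2. They were SNAI2 in M2 (1.26, adjusted p = 0.00075), TWIST2 in M2 and M1 (1.44 and 1.22, adjusted p = 7.6e-05 and 0.00054), and ZEB1 in M1 (0.43, adjusted p = 0.0497), a call lost without any 1 library of M1, EM2, EM3 or Parental or without EM1 replicate 1 (0.38 to 0.50). With the window median removed SNAI2 was 1.68 and TWIST2 0.78 in M2 and 0.87 in M1, all still called, and the ZEB1 call was lost (0.41).

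Genes reported elsewhere as targets of the 4 factors had regions for 10 of 15. In M2, 6 fell and 3 rose, and in M1 4 fell and 2 rose. The list was not split by whether a factor is reported to activate or repress the gene. It shares CDH1 with the epithelial markers, and SNAI2 and ZEB1 with the EMT factors. ZEB1 is also a mesenchymal marker here, and such shared genes are counted in each list. CDH1, the E-cadherin gene, fell in both M clones (-5.90 in M2 and -3.91 in M1, adjusted p = 4.9e-08 and 9e-07). LCN2, a secreted iron-binding protein of epithelia, fell as well (-2.07 in M2 and -2.67 in M1, adjusted p = 2.4e-05 and 8.5e-06). AGR2, a chaperone of secretory cells, had 0.0764 ± 0.108 CPM in M2 and 0.644 ± 0.443 CPM in M1, against 11.9 ± 0.864 CPM in Parental. CREB3L1, a factor of the secretory pathway, rose by 3.97 in M2 (adjusted p = 2.1e-05).

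Epithelial marker genes were checked against the clones' names. Of 6, 4 fell in both M clones (EPCAM, CDH1, KRT5 and CLDN4), and 2 rose in M2. The 2, named here after their values were seen, are KRT8 and KRT18, which share 1 region (0.55, adjusted p = 0.032). This value lost its call without either M2 library or Parental replicate 1 and with library totals, and it was -0.14 with the window median removed. EPCAM changed by -5.71 in M2 and -2.34 in M1, and 3 of the 6 markers fell in EM2. Of 3 mesenchymal markers with a region (of 4 listed), 2 rose in M2, 3 in M1 and 1 in EM2, with VIM up by 1.62 in M2 and by 1.32 in M1 (adjusted p = 2e-04 and 0.0017). With the window medians removed the 3 in M1 became 1, the calls of FN1 (0.74) and ZEB1 (0.41) being lost. Of the 3 endothelial markers, 0 had a gene-end region. Blood markers had 3 of 5, of which 2 fell in M2 (CD3E, -1.40, and CD14, -0.87) and 1 in E (CD3E, -1.22). The call in E was lost without either E or either Parental library (-1.37 to -1.01) and with the window median removed (-0.93). Of 9 other genes in or next to the windows, 6 had a region, and 3 of these fell in both M2 and E, 2 rose in M2 and 1 fell in M1. The 3 were ABTB2, CAT and APIP, all on chromosome 11 beside ELF5 and EHF (-0.71, -0.58 and -0.60 in M2, and -0.87, -0.75 and -1.02 in E). With the window median removed they lay between 0.37 and 0.49 in M2 and between -0.12 and 0.15 in E, and the ABTB2 call in E was also lost without Parental replicate 2 (-0.71). Without E replicate 1 the 3 changes in E were -0.88, -0.74 and -0.97.

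**Figure D4:**
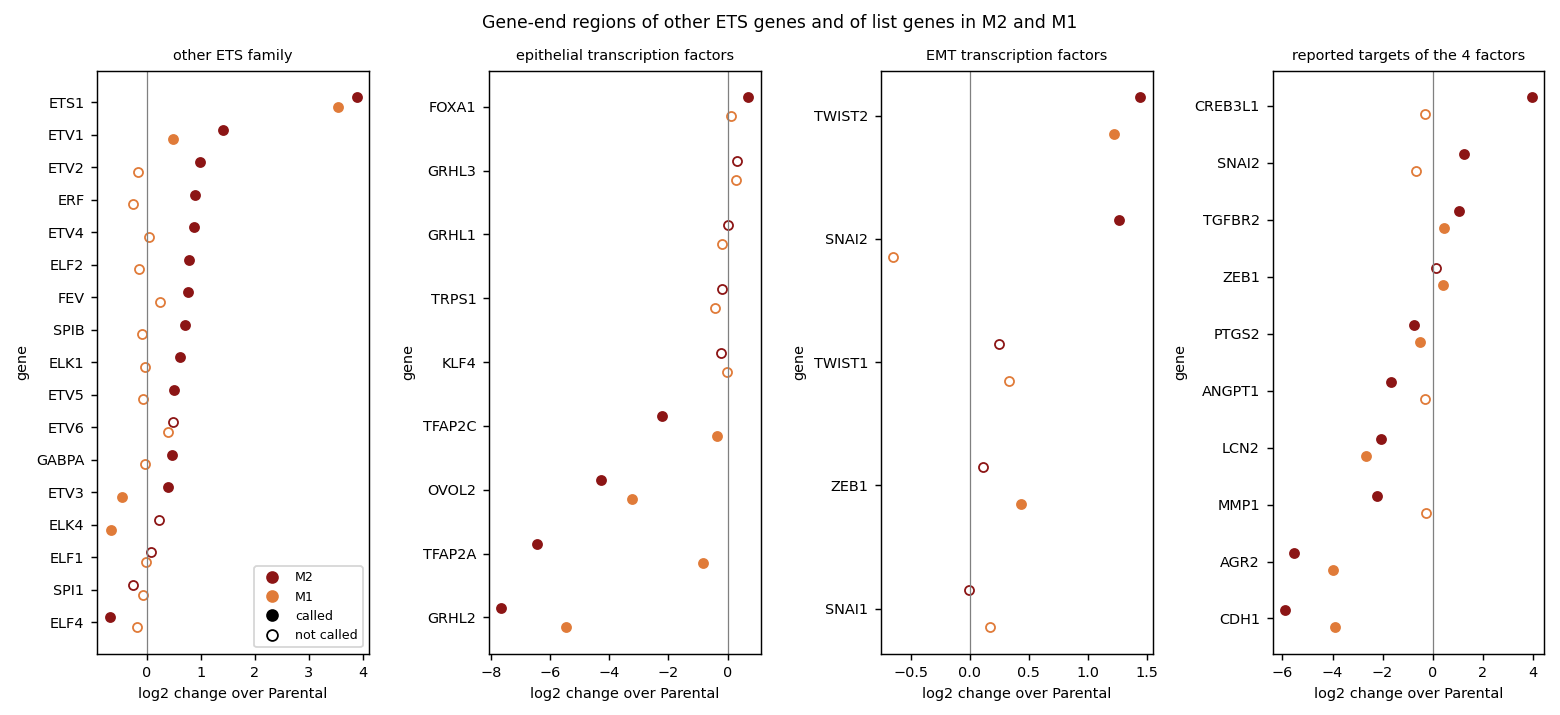
Log2 change against Parental of the gene-end region of each gene of 4 lists (other ETS family, epithelial transcription factors, EMT transcription factors, reported targets) in M2 and in M1, with filled points for called changes. Of the other ETS family 12 of 17 are called higher in M2 and 2 of 17 in M1, and ETS1 lies highest of that list in both.

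Gene-end regions whose pattern was most like that of the start regions of ELF3, EHF and ELF5, or of the SPDEF region at 12.7 kb, were ranked by Pearson's r of log2 CPM over the 14 libraries, which share groups and sequencing depth. Candidates were limited to gene-end regions with a mean log2 CPM above the median, 8995 for ELF3 and 8996 for each of the others. The genes named are the highest of that many values, and no p was computed. For ELF3 the highest were CLDN4 (0.995), MYO5B (0.993), CYP4F3 (0.993), CDH1 (0.992) and SH2D3A (0.991). For EHF they were SPTSSB (0.976), LIPG (0.972), DUS1L (0.970), DCDC2B (0.964) and ARHGEF38 (0.960). For ELF5 the values were lower, with P2RX3 (0.941), CD3E (0.927), a region shared by FOXRED1 and SRPRA (0.917), RAB39B (0.912) and TLE4 (0.904). Of these, P2RX3, CD3E and the region of FOXRED1 and SRPRA lie on chromosome 11, as ELF5 does, while RAB39B lies on X and TLE4 on chromosome 9. The part of the shared chromosome in these values was not tested. For the SPDEF region they were a region shared by MPG and NPRL3 (0.943), one shared by DNAAF19 and FAM187A (0.942), ULBP2 (0.915), PDCD1LG2 (0.893) and one shared by BRMS1 and RIN1 (0.893). Between the 3 start regions r was 0.93 for ELF3 with EHF, 0.46 for ELF3 with ELF5 and 0.38 for EHF with ELF5. The SPDEF region at 12.7 kb, which is not at a start, had an r of -0.76 with the ELF3 start, -0.70 with the EHF start and -0.10 with the ELF5 start.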

How the data were processed

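ATAC-seq counts were analysed for 14 libraries, 2 in each of 7 groups. The deposited table holds raw read counts per region of a consensus set on hg38. The submitters' processing notes name Bowtie2 2.2.6, MACS2 2.1.1, featureCounts, cutadapt 1.9.1 and Picard, and their settings are not given in the sources used here. Columns were matched to samples by name. Peak lists were not used, since name and recorded sample disagreed. The regions of the 4 gene windows were taken by start position. edgeR 4.0.16 (R 4.3.3) fitted a quasi-likelihood model with 7 group means to all counts, with TMM scaling, a minimum count of 10 (3 regions removed, 65771 tested), a prior count of 2 and Benjamini-Hochberg adjustment over all regions. A fitted fold of a group near 0 depends on the prior count. The SE was derived from the F statistic. edgeR's common coefficient of biological variation came to 0.208. Replicates differed by more than sampling noise (chi-square per degree of freedom 3.89 to 8.67).

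Genes, starts and promoters came from RefSeq (GRCh38.p14). Exon structure was not analysed here. Full statistics go to the start region and the 2 most open others of each gene, and further members are described because all belong to the windows. Of each list, at most 4 called genes with the smallest p are named. 1 gene was left out of the lists and is not reported here. The members and lists were chosen with earlier results of these data known. Alternatives were library totals, DESeq2 1.42.0 size factors and its Wald test, no filter, only the 4 libraries compared, a replicate block, the 10 Mb window median removed, only regions nearest to the gene, and each library left out.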

Additional observations from a re-analysis of the deposited data

Results flagged for a closer look

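At 5 regions M2 and M1 lay on opposite sides of Parental, with at least 1 of them called against Parental and a called difference between them. Both clones were called against Parental only at the ELF5 region at 12.1 kb. The difference of M2 from M1 was -2.63 at the EHF region at -21.3 kb, -0.67 at the EHF region at 64.4 kb, 0.79 at the ELF3 region at -27.7 kb, -3.17 at the ELF5 region at 12.1 kb and -0.75 at the ELF5 start region. With the window median removed they were -1.47, 0.51, 0.61, -2.02 and 0.40, so that those at EHF 64.4 kb and at the ELF5 start changed sign. The difference at the ELF5 start was lost without M2 replicate 2 or M1 replicate 2 (-0.96 to -0.58 over single libraries left out). EM2 and E lay on opposite sides of Parental at the EHF region at 64.4 kb and the ELF5 region at 12.1 kb, where EM2 was above E by 0.95 and 1.38 (0.83 and 1.06 without E replicate 1). With the window median removed these 2 differences were 0.02 and 0.46 and were no longer called. The groups compared share the Parental libraries, and groups of 2 libraries were not searched for outliers.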

How the results depend on the processing

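Of 77 called changes of the 24 regions, 1459 of 1613 values under the alternatives kept direction and call, 146 lost the call and 8 changed sign. All 8 arose with the 10 Mb window median removed: EHF at 64.4 kb (0.51 in M2 and 0.039 in E against Parental, 0.51 for M2 against M1), the ELF5 start (0.31 in M2 against Parental, 0.40 for M2 against M1), EHF at 33.1 kb (0.70 for M2 against M1, -0.063 for EM2 against E) and ELF3 at -27.7 kb (0.078 for EM2 against E). Under the same setting ABTB2 was 0.37 in M2 and 0.025 in E, CAT 0.49 in M2 and 0.15 in E, APIP 0.49 in M2, and KRT8 and KRT18 -0.14 in M2. By construction it removes what a whole segment shares. It left 3 called regions in EM2, 0 in E (where 10 had an unadjusted p under 0.05 without it and DESeq2 called 8), and 4 for EM2 against E. Over all regions this setting called 4597 in EM2, 5176 in E and 8273 for EM2 against E.

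With DESeq2, 8 regions were called in EM2 and 3 in EM3. In a fit of only the 4 libraries compared there were 4 in EM3, 11 for M2 against M1 and 5 for EM2 against E. Leaving out 1 library gave 2 to 7 in EM2, 0 to 2 in EM3, 2 to 8 in E and 4 to 12 for EM2 against E. The labels tie replicate numbers to no shared day or culture, so the fit has no block. Deviations of same-numbered libraries correlated positively in all 21 pairs of groups (0.023 to 0.590, 19 over 0.1), a hint of a shared replicate effect from the data and not from the design. A replicate block gave 9 called regions in EM2, 6 in EM3, 8 in E, 16 for EM2 against E, 18 in M1, 18 for M2 against M1 and 20 in M2.

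Library totals moved the median of all regions by -0.11 in M2 against Parental and by -0.15 in M2 against M1, and window sums (CPM per kb) to 45.8 for EHF in M2, 61.8 for EHF in M1, 16.9 for ELF3 in M2 and 24.6 for SPDEF in M2. Using only regions nearest to the gene gave 4.82 for ELF3 in M2, 8.08 for ELF3 in M1, and for SPDEF 28.0 in M2, 46.1 in M1, 16.7 in EM2, 20.1 in EM3, 17.3 in EM1 and 12.3 in Parental. Causes of these shifts were not tested. Depth limits the regions with 0 to 2 counts in M2, where only a bound or a wide interval can be given. Over all regions, the called counts of 413 in EM1, 6043 in EM2, 2048 in EM3 and 7609 in E became 1602, 10811, 5482 and 13106 with the replicate block. The block also gave 32720 in M1, 47640 in M2, 41454 for M2 against M1 and 17470 for EM2 against E. With only the 4 libraries the counts were 1132 in EM1, 5469 in EM3, 4453 in E, 35131 for M2 against M1, and 4783 against 11822 for EM2 against E. DESeq2 called 1197 in EM1, 7601 in EM2, 3643 in EM3 and 9644 in E, and 220 were called in EM1 with the window medians removed. Leaving out 1 library gave 2 to 718 in EM1, 2173 to 7478 in EM2, 108 to 3189 in EM3, 1235 to 9267 in E and 5977 to 11565 for EM2 against E.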
